A study of Mus musculus with 8 samples.

Results

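The 7 genes described here build the route by which proximal tubule cells take filtered protein out of the tubular fluid. They are the receptors megalin (Lrp2) and cubilin (Cubn), the cubilin partner amnionless (Amn), the adaptor Dab2, the endosomal exchanger ClC-5 (Clcn5), the lipid phosphatase OCRL (Ocrl) and the heavy chain of the neonatal Fc receptor (Fcgrt). They were taken by name, and every probe that is not a control and whose transcript accession belongs to one of them was used, which gave 11 of 39429 probes. All 7 genes were among the 14476 genes tested, and all 11 probes were well above background on all 8 arrays.

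RNA came from primary cultures of kidney proximal tubule cells of male C57/BJ mice aged 6 weeks. Trypsin-digested cortex yielded a pellet made up mainly of tubules, which grew to confluence. In serum-free medium, 4 samples then received the vehicle DMSO and 4 received 1 uM GW4064, a synthetic agonist of the bile acid receptor FXR, for 24 h. The labels name no allele or transgene. They leave unsaid if the 4 samples per treatment had separate origins, and the p-values therefore speak only of variation among these 8, possibly technical. The comparison asked what the agonist changed in these cells. RNA was measured, not protein or uptake.

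Megalin is a giant receptor of the LDL receptor family that spans the membrane and binds albumin, vitamin carriers, hormones and drugs. Cubilin has no membrane span of its own and reaches the surface only with amnionless, whose tail carries the signals for uptake; the pair is called cubam. Dab2 links the receptor tails to clathrin, ClC-5 and the vacuolar proton pump acidify the endosome so that ligands let go, OCRL clears a phosphoinositide from the endosomal membrane so that receptors recycle, and the neonatal Fc receptor returns albumin and IgG that would otherwise be degraded. Loss of ClC-5 or OCRL in people gives Dent disease or Lowe syndrome, with protein of low mass in the urine.

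Of the 7 genes, 4 rose with GW4064 at an adjusted p under 0.05 in limma, the linear model fitted over all 14476 genes with Benjamini-Hochberg adjustment. They were Cubn, Amn, Lrp2 and Fcgrt. None of the 7 fell, and Dab2, Clcn5 and Ocrl did not pass. Of all genes tested 20.8% passed; 11.8% of all genes were higher and 8.95% lower with GW4064. The median log2 fold change was 0.15 for the 7 genes and 0.015 for all genes. Each value given is a probe's log2 signal after subtracting its array's 75th percentile over probes, so that 0 is the brightness of the probe at that percentile. They compare arrays within a probe, and a probe's brightness does not rank genes by abundance.

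Between 61.4% and 65.7% of probes were well above background on each array. That percentile stood at a processed signal of 1626 ± 187 (SD, n = 4) for DMSO and 1412 ± 207 (SD, n = 4) for GW4064. Each of 2 slides carried 2 DMSO and 2 GW4064 samples, and the DMSO samples held the first places on both slides, so that place and treatment cannot be told apart.

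**Figure D1:**
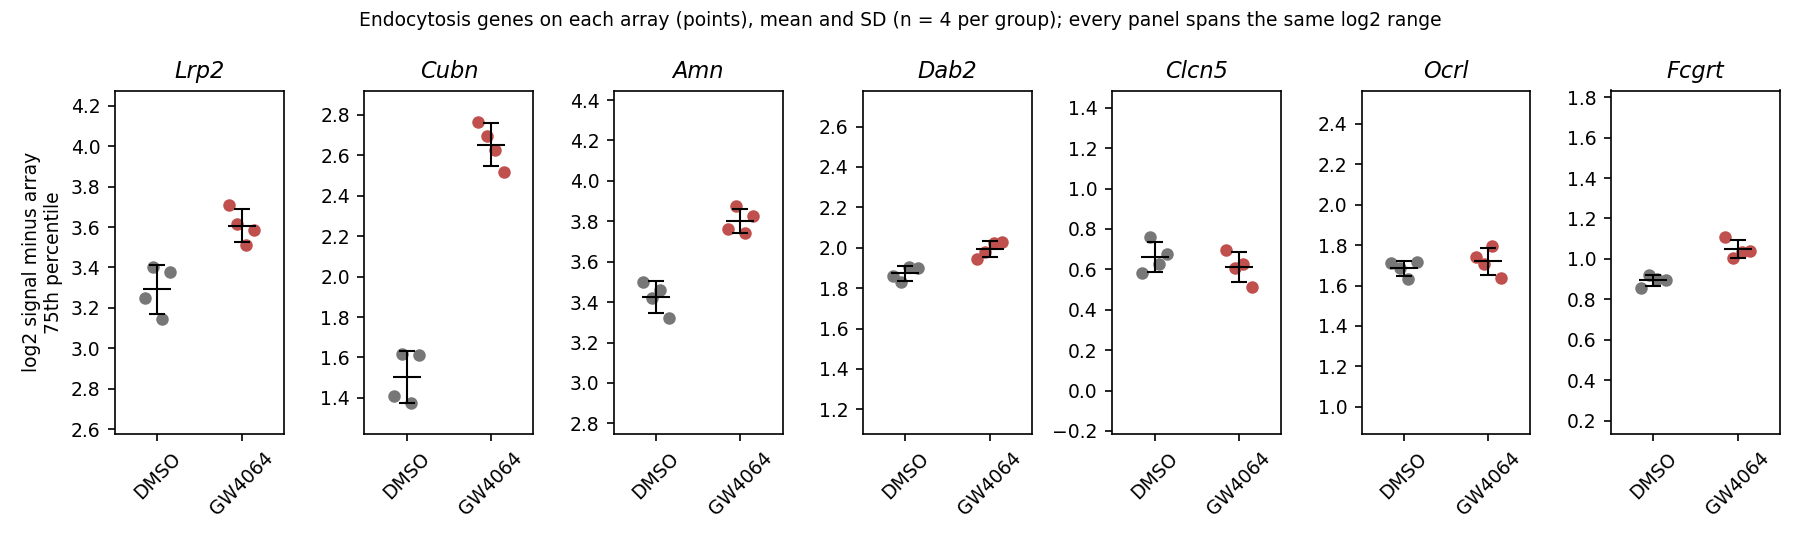
Scaled log2 signal (0 is the array's 75th percentile) of the 7 genes, 1 panel a gene, each point 1 array, with the mean and SD of 4 arrays per group and the same range in every panel. The groups lie clear of each other for Cubn, Amn, Lrp2, Fcgrt and, narrowly, Dab2, and they overlap for Clcn5 and Ocrl.

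Cubn had the largest change of the 7 genes. It encodes cubilin, the receptor for albumin, transferrin, the vitamin D binding protein and the complex of intrinsic factor with vitamin B12. On its brighter probe, A_55_P2047639, the DMSO arrays read 1.41, 1.62, 1.38 and 1.61 and the GW4064 arrays 2.77, 2.70, 2.63 and 2.52. The lowest treated array stood well above the highest vehicle array. Cubn rose 2.22-fold (1.15 ± 0.077 SE on the log2 scale, n = 4 per group; 95% interval 1.96-fold to 2.51-fold; adjusted p = 3.77e-05 in limma). By size of log2 fold change it was number 117 of the 1711 genes called higher.

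The other Cubn probe, A_55_P2047638, gave a far dimmer signal, with -2.56, -2.30, -2.72 and -2.45 on the DMSO arrays and -1.23, -1.23, -1.38 and -1.10 on the GW4064 arrays. Its groups did not overlap either, and its change was of like size, 2.41-fold (1.27 ± 0.096 SE, n = 4 per group; adjusted p = 1.19e-04 in limma fitted over probes). Both probes carry the same Cubn accession. The rise was 1.22 on slide 1 and 1.08 on slide 2, and with any single array left out it stayed between 1.11 and 1.19.

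Amn, the membrane anchor that cubilin needs to leave the endoplasmic reticulum, rose less. Its single probe read 3.50, 3.42, 3.46 and 3.32 with DMSO and 3.76, 3.88, 3.74 and 3.83 with GW4064, with no overlap. The change was 1.30-fold (0.38 ± 0.051 SE, n = 4 per group; 95% interval 1.20-fold to 1.41-fold; adjusted p = 0.00149 in limma). It was 0.36 on slide 1 and 0.40 on slide 2.

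Lrp2, which encodes megalin, rose by a similar small amount. Its single probe read 3.25, 3.40, 3.14 and 3.38 on the DMSO arrays and 3.71, 3.62, 3.51 and 3.59 on the GW4064 arrays. The groups did not overlap, though the highest vehicle array came close to the lowest treated one. The fold was 1.24 (log2 0.31 ± 0.068 SE, n = 4 per group; 95% interval 1.12-fold to 1.39-fold; adjusted p = 0.0144 in limma). Slide 1 gave 0.34 and slide 2 gave 0.29.

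FXR and other nuclear receptors are known to bind AGGTCA hexamers. The stretches before the annotated starts of the receptor genes and Amn, all of which rose, are shown here. Each is the 250 bases upstream of the RefSeq start in build GRCm38.p6, written 5′ to 3′ on the gene's strand; the arrays were designed on mm9. Capitals mark every match, on either strand, to the motifs searched. These were the inverted repeat AGGTCANTGACCT of FXR sites, the direct repeat AGGTCANAGGTCA, the single hexamer AGGTCA (which both repeats contain), the HNF1 core GTTAAT, the E-box CACGTG, the GC box GGGCGG, the box CCAAT and the box TATAAA.
Lrp2, chr2:69586030-69586279, minus strand: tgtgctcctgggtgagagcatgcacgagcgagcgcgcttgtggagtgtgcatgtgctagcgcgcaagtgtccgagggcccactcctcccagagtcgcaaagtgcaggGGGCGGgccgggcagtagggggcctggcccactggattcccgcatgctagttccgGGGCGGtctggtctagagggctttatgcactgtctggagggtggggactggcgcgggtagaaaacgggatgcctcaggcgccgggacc
Cubn, chr2:13491877-13492126, minus strand: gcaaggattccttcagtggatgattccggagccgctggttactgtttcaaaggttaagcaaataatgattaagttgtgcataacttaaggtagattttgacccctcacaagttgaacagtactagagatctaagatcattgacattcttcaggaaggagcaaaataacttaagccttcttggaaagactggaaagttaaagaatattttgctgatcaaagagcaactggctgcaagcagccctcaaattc
Amn, chr12:111270846-111271095, plus strand: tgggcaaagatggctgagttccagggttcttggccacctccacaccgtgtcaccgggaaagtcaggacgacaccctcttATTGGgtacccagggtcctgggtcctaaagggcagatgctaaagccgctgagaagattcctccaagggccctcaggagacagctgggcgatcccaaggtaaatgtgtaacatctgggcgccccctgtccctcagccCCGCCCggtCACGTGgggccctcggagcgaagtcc

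The Cubn stretch held no match to any of the 8 motifs and had a GC content of 39.6%, against 66.4% for Lrp2 and 61.2% for Amn. Lrp2 held 2 GC boxes, and Amn held 1 GC box, 1 CCAAT box and 1 E-box. Fcgrt, which also rose and whose stretch is not shown, held no match. None of the 9 windows that RefSeq gives for the 7 genes held AGGTCA, which 14% of the 32851 windows of that length hold. GC boxes were in 4 of the 9, against 32.7% of all windows. The inverted repeat AGGTCANTGACCT was in 0.00609% of all windows and the direct repeat AGGTCANAGGTCA in 0.0335%. CCAAT was in 33.8%, TATAAA in 12.4%, GTTAAT in 6.43% and CACGTG in 6.02%, each with 1 of the 9 windows. A window without a match says only that these letters are not in these 250 bases.

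Fcgrt, whose product binds albumin and IgG in acid endosomes and returns them, showed a small rise. Its single probe read 0.86, 0.92, 0.90 and 0.90 with DMSO and 1.11, 1.01, 1.03 and 1.04 with GW4064, with no overlap between tight groups. The change was 1.11-fold (0.15 ± 0.036 SE, n = 4 per group; 95% interval 1.05-fold to 1.18-fold; adjusted p = 0.0199 in limma). The call did not outlast the loss of some single arrays, with adjusted p = 0.0515 in limma without DMSO replicate 1, 0.0526 without DMSO replicate 4 and 0.0552 without GW4064 replicate 1, and it was lost on centring arrays at the median (adjusted p = 0.113 in limma). For B2m, the light chain of this receptor, the log2 difference was 0.011 ± 0.047 SE, which missed the threshold.

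Dab2, the adaptor that binds the receptor tails and brings them into clathrin-coated pits, lay at the threshold. Its single probe read 1.86, 1.83, 1.90 and 1.90 with DMSO and 1.95, 1.98, 2.03 and 2.03 with GW4064. The treated arrays were all above the vehicle arrays, with a narrow gap. The log2 fold change was 0.12 ± 0.037 SE (n = 4 per group; 95% interval 1.03-fold to 1.15-fold), and the adjusted p = 0.0506 in limma did not pass. Dab2 passed in 5 of 22 alternatives, among them slide as a block (adjusted p = 0.0364 in limma). It passed in none that left out 1 array, nor after median centring (adjusted p = 0.231 in limma). Groups did not overlap for 5 of the 7 genes, Dab2 and the 4 called, and for 26.2% of all genes.

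Clcn5 encodes the exchanger of chloride for protons in the early endosome. Its brightest probe, A_55_P2180301, read 0.58, 0.76, 0.62 and 0.68 with DMSO and 0.69, 0.61, 0.63 and 0.51 with GW4064, and the groups overlapped. The log2 fold change was -0.050 ± 0.054 SE (n = 4 per group; 95% interval -0.17 to 0.073; adjusted p = 0.552 in limma). The other 2 probes gave -0.13 ± 0.070 SE and -0.048 ± 0.092 SE (n = 4 per group), also with overlap and without passing. All 3 estimates lay below 0. In the fit over probes, the 95% intervals of these other 2 were wider, from -0.29 to 0.030 and from -0.26 to 0.16.

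Ocrl, the phosphatase that acts on phosphatidylinositol bisphosphate at endosomes, had the smallest estimate of the 7. Probe A_66_P135987 read 1.71, 1.68, 1.63 and 1.72 with DMSO and 1.74, 1.71, 1.80 and 1.64 with GW4064, so the groups were mixed. The log2 fold change was 0.034 ± 0.044 SE (n = 4 per group; 95% interval 0.95-fold to 1.10-fold; adjusted p = 0.624 in limma). The other probe gave 0.021 ± 0.033 SE (n = 4 per group).

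**Figure D2:**
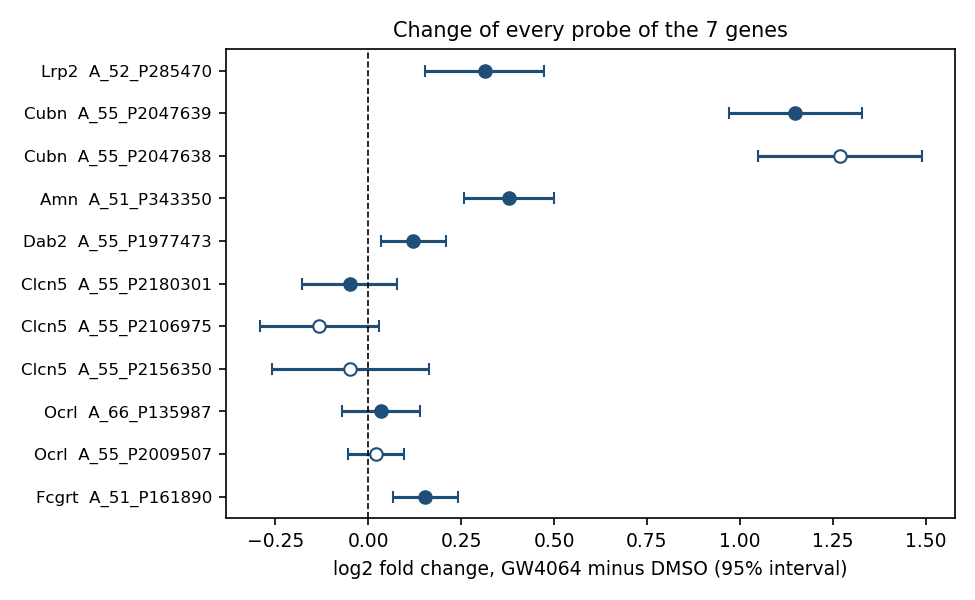
Log2 fold change, GW4064 minus DMSO, of each of the 11 probes with its 95% interval from the fit over probes (4 arrays per group), filled for the probe used for the gene and open for the others. Both Cubn probes lie past 1, and all 3 Clcn5 probes and both Ocrl probes have intervals that span 0.

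The genes were also compared with each other. For 4 pairs set by role, the log2 difference between the genes was taken within each array and compared between groups with a two-sided exact permutation test over samples, for which 0.0286 is the smallest p that 4 against 4 allow. For the receptors, Lrp2 minus Cubn was 1.79 ± 0.034 (SD, n = 4) on the DMSO arrays but 0.95 ± 0.080 (SD, n = 4) on the GW4064 arrays. The groups did not overlap (exact permutation p = 0.0286, adjusted p = 0.0571 over the 4 pairs).

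For cubilin and its partner, Cubn minus Amn was -1.92 ± 0.20 (SD, n = 4) under DMSO against -1.15 ± 0.13 (SD, n = 4) under GW4064, a difference of 0.77 with no overlap (exact permutation p = 0.0286, adjusted p = 0.0571). Since the smallest p was reached by 2 pairs of 4, neither could pass 0.05 after adjustment. For Lrp2 minus Dab2 the difference was 0.19 and the groups overlapped (exact permutation p = 0.114, adjusted p = 0.143). For Clcn5 minus Ocrl it was -0.085, again with overlap (exact permutation p = 0.143, adjusted p = 0.143).

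**Figure D3:**
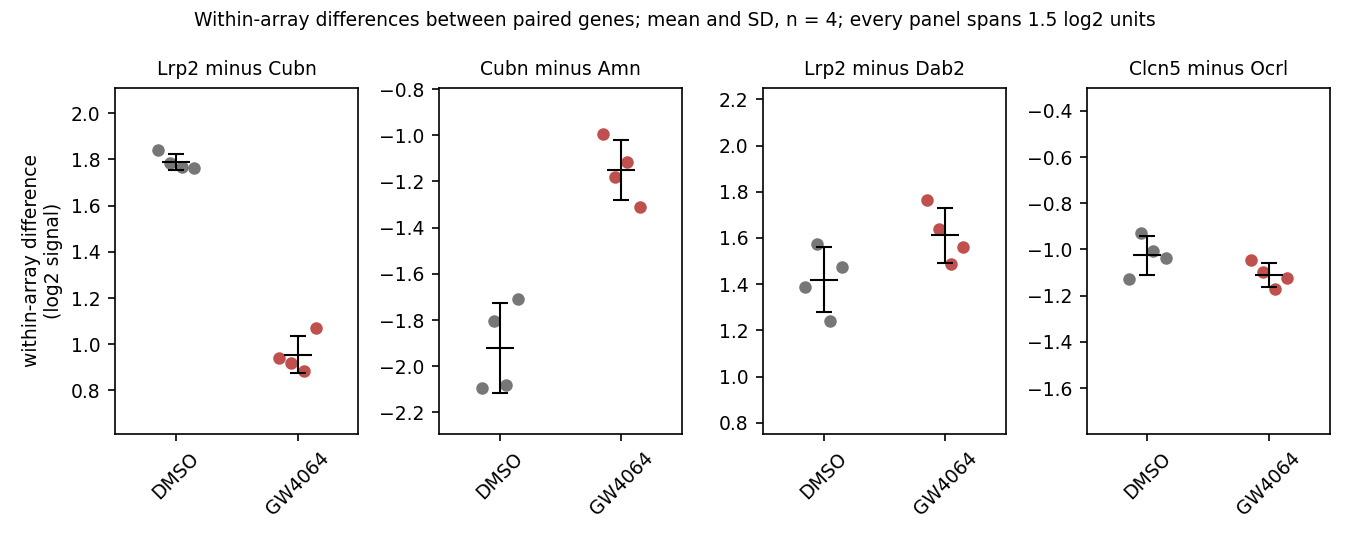
Difference in log2 signal between 2 genes on the same array, for the 4 pairs, each point 1 array, with the mean and SD of 4 arrays per group. The differences that involve Cubn separate the groups, and the other 2 overlap.

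By Pearson correlation over the 8 arrays, which span both groups, the genes most like Cubn among 14475 others were Pla1a (0.995), a phospholipase, Gsta4 (0.995), a glutathione transferase, and the transcript A830052D11Rik (0.994). They rose by a log2 of 0.84, 1.61 and 0.80. Those most like Lrp2 were Nudt19 (0.990), Zfp706 (0.987) and Ehhadh (0.985), a peroxisomal enzyme of fatty acid oxidation. Nudt19 and Ehhadh rose by a log2 of 0.30 and 0.32, and Zfp706 (0.090 ± 0.036 SE) did not pass. These values rank genes over a few arrays that share their groups and carry no test.

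Other genes of the route were read from 9 lists. Together they held 175 genes besides the 7, of which 165 were tested, 23 rose, 11 fell and 131 did not pass, or 20.6% called against 20.8% of all genes. Their median log2 fold change was 0.025.

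Among receptor partners and adaptors 4 of 13 tested genes rose and none fell (30.8% called, against 20.8% of all genes; median 0.018). Lrpap1, the chaperone RAP that keeps megalin free of ligand on its way to the surface, rose 1.37-fold (0.46 ± 0.057 log2; adjusted p = 9.39e-04 in limma). Mapk8ip1, a scaffold of JNK signalling that can bind megalin's tail, rose 1.39-fold (0.48 ± 0.078 log2). Cblif, intrinsic factor, was not well above background on any array.

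In the clathrin coat and vesicle formation list 3 of 28 genes fell and none rose (median -0.0025), a share lower that is near the 8.95% of all genes. Picalm, which couples clathrin assembly to the membrane, was 1.29-fold lower (-0.37 ± 0.040 log2; adjusted p = 4.49e-04 in limma). Hip1r, which links clathrin to actin, was 1.18-fold lower. In endosome sorting and recycling 2 of 32 rose and 2 fell (12.5% called, against 20.8% of all genes; median 0.012). Rab38, a small GTPase of lysosome-related organelles that has been tied to tubular protein uptake in rats, rose 3.44-fold (1.78 ± 0.063 log2; adjusted p = 1.11e-06 in limma), from -0.49 ± 0.088 to 1.29 ± 0.096 (SD, n = 4). Ehd1, a recycling ATPase, rose 1.15-fold, and Snx3 and the recycling GTPase Rab11a were 1.12-fold and 1.14-fold lower.

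Of 24 tested genes of endosomal acidification 3 rose and 1 fell (16.7% called, against 20.8% of all genes; median 0.019). Of the proton pump's subunits, Atp6v1b2 rose 1.31-fold (0.39 ± 0.042 log2) and Atp6v1g1 1.13-fold, and Atp6v0d2 was 1.64-fold lower (-0.71 ± 0.071 log2; adjusted p = 2.85e-04 in limma). Among phosphoinositide enzymes and OCRL partners 1 of 21 rose, Pi4k2a, a lipid kinase, by 1.15-fold (4.76% called; median 0.053). That call was lost without any 1 of DMSO replicate 2, DMSO replicate 4, GW4064 replicate 1 or GW4064 replicate 2, each of which left 0 called in limma. In the rest of the LDL receptor family 1 of 13 tested genes rose and 2 fell (23.1% called; median -0.0012). Without DMSO replicate 1 the count was 5, of which 3 were higher, and it was the same with the mean of a gene's probes. Lrp4 rose 1.45-fold (0.53 ± 0.071 log2), and Vldlr and the sorting receptor Sorl1 were 1.31-fold and 1.24-fold lower.

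For cargo that the receptors bring in, 4 of 13 genes of vitamin B12 and vitamin D handling rose and 1 fell (38.5% called, against 20.8% of all genes; median 0.13). The 5 calls became 2 without GW4064 replicate 1 or without GW4064 replicate 2, and 3 without DMSO replicate 4. Cyp24a1, the enzyme that inactivates vitamin D, rose 3.57-fold (1.84 ± 0.078 log2; adjusted p = 3.31e-06 in limma) and the vitamin D receptor Vdr 1.22-fold, and Gc, the vitamin D binding protein, was 1.26-fold lower. Of the protein ligands of the receptors 4 of 9 tested genes passed, all higher (44.4% called, against 20.8% of all genes called and 11.8% higher; median 0.15). One of them, Rbp4, the retinol carrier, exceeded background clearly on 4 of 4 GW4064 arrays but 1 of 4 DMSO arrays, so it entered the test through the group where it is bright and the size of its change cannot be read; with probes required on all 8 arrays 3 genes passed. Trf, transferrin, rose 1.86-fold. Alb was not well above background on any array. Of 12 lysosomal proteases and membrane proteins 4 rose and 2 fell (50% called, against 20.8% of all genes; median 0.12). Without GW4064 replicate 1 only 3 passed, all higher, and with normexp background 3 passed, of which 2 were higher. The proteases Ctsd and Ctsa rose 1.43-fold and 1.15-fold, and Ctsl and Lamp2 were 1.13-fold and 1.14-fold lower.

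**Figure D4:**
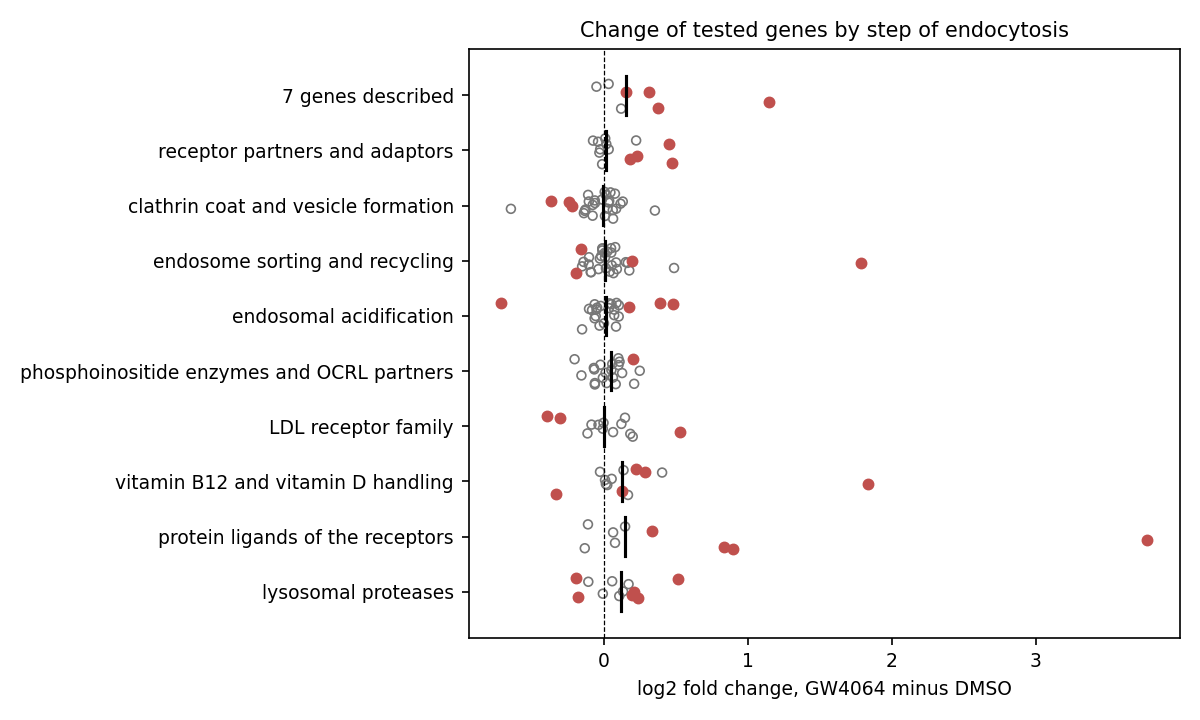
Log2 fold change, GW4064 minus DMSO, of the 7 genes and of each tested gene in the 9 lists; filled points passed an adjusted p of 0.05 and open points did not, and bars are medians. Most genes of the coat, sorting, acidification and lipid steps lie near 0, and Cubn, Rab38 and Cyp24a1 lie past 1, as does Rbp4, whose DMSO signal was mostly not well above background.

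Markers of the labelled cell type were read beside the receptors. Of 18 tested proximal tubule markers 13 rose and 2 fell (83.3% called, against 20.8% of all genes; median 0.86). Slc13a1, a sulfate transporter, rose 5.74-fold, Gatm, of creatine synthesis, 3.87-fold and Ass1, of the urea cycle, 2.17-fold. The 2 that fell were Kap, an androgen-regulated protein of the proximal tubule, which was 1.60-fold lower (-0.68 ± 0.11 log2; adjusted p = 0.00301 in limma), and Slc7a8, an amino acid transporter, which was 1.24-fold lower (-0.31 ± 0.044 log2; adjusted p = 0.00203 in limma). The summed signal of the list, in units of each array's 75th percentile, was 131 to 164 with DMSO and 178 to 203 with GW4064; its part in the rise of the receptors was not tested. Slc34a3 was not well above background on any array. In bulk samples, more cells of a type and more RNA per cell cannot be told apart.

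Dab2 and Fcgrt are also expressed in macrophages and endothelium, so markers of those cells were read as well. Of 15 tested leukocyte and macrophage markers 5 rose, none fell and 10 did not pass (33.3% called, against 20.8% of all genes called and 11.8% higher; median 0.28), among them Csf1r (1.68-fold), Coro1a (1.27-fold) and C1qb (1.21-fold). The summed signal of the 16 markers on the array was 11.6 to 13.1 with DMSO and 15.1 to 17.2 with GW4064. The sums of the other marker lists likewise take in genes on the array that were not tested. Of that sum, Csf1r alone made up 5.05 to 5.45 and 8.16 to 9.02, and the sum without it overlapped, at 6.52 to 7.66 and 6.86 to 8.34. Itgam, a leukocyte integrin, was the brightest of the others, at a log2 mean of 2.34 with DMSO and 2.38 with GW4064. Its log2 difference was 0.034 ± 0.11 SE. The sum without Csf1r thus says little of the dimmer markers. Ptprc read lower on every GW4064 array than on any DMSO array, but did not pass (log2 -0.90 ± 0.54 SE; adjusted p = 0.279 in limma). Its DMSO arrays spread widely (SD 1.26, n = 4). Fcgr3 was slightly lower (-0.11 ± 0.072 SE) and did not pass either. All other tested markers of the list had estimates above 0. Each of the 16 markers on the array was well above background on at least 1 array. Of 11 endothelial markers 4 rose, none fell and 7 did not pass (36.4% called; median 0.24; summed 5.76 to 6.46 and 6.35 to 7.13). Esam (1.99-fold), Plvap (1.29-fold) and Cdh5 (1.26-fold) were among those that rose. Vwf (log2 -0.68 ± 0.66 SE) and Flt1 (-0.20 ± 0.074 SE) had estimates below 0 and did not pass. The other tested endothelial markers had estimates above 0. Tek was not well above background on any array. The part of these cells in the values of Fcgrt and Dab2 was not tested.

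Of 11 fibroblast and pericyte markers 4 rose and 1 fell (45.5% called, against 20.8% of all genes; median 0.19; summed 82.6 to 107.2 and 97.2 to 113.2). Tagln and Pdgfrb rose 1.44-fold and 1.25-fold, Fbln2 was 1.58-fold lower, and Lum was not well above background on any array. Of 10 tested markers of other nephron segments and podocytes 1 rose and 2 fell (30% called, against 20.8% of all genes; median -0.030; summed 9.01 to 11.0 and 10.1 to 11.8). Trpm6 rose 1.40-fold, and Umod (1.63-fold) and Slc12a3 (1.70-fold) were lower with overlapping groups. The Slc12a3 signal stood clear of background in all 4 vehicle samples but in just 2 of the 4 treated ones. The size of its fall therefore cannot be read. Calb1 and Atp6v1b1 were not well above background on any array. The part of fibroblasts, pericytes, other segments and podocytes in the values of the 7 genes was not tested.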

How the data were processed

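Each sample was hybridised to 1 one-colour Agilent array. The authors deposited each spot's processed signal as an intensity, already background-subtracted; per the file headers this was done in Feature Extraction 10.7.3.1. Limma is also among the tools in the submitters' processing notes. The authors also deposited a table of log2 values with unstated scale and centring. Its columns shared 1 distribution (median 6.598) and each correlated at 0.9996 or more with its own array, so it was used only as an alternative.

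Control spots (1377 of 44397 per array) and outlier spots (98 to 174) were left out and spots of a probe averaged on the log2 scale. The 75th percentile of probe signals was subtracted. Probes well above background on at least 4 of 8 arrays were kept (24723), named through RefSeq accessions of GRCm38.p6 (27234 of 39429 probes matched), and the brightest kept probe stood for a gene. Limma 3.58.1 in R 4.3.3 compared the groups with no covariate. No spot was saturated and no arrays were identical. The number of arrays limits the precision.

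The 7 genes and the lists were chosen with earlier results of these data known. Genes named were the 7 members, the 2 called genes of each pathway list with the smallest p in each direction, the 3 of each marker list in either direction, marker genes never above background, and the 3 genes most like Lrp2 and Cubn. B2m, Cblif, Alb, Kap, Slc7a8, Itgam, Ptprc, Fcgr3, Vwf, Flt1 and the leukocyte sum without Csf1r were added after their values were seen. On data simulated for this comparison over 14476 genes, limma recovered 80 of 100 genes changed by 0.5 and 93 of 100 changed by 1, and called 11 unchanged genes. Noise was drawn independently for each gene. Far fewer genes were changed in the simulation than the 3006 that passed in the data. The Benjamini-Hochberg cut-off depends on that share, so the recovery need not carry over. Of the 7 genes, all but Cubn changed by less than 0.5, and recovery at such sizes was not simulated. Alternatives covered background correction, normalization, filter, probe choice, blocks, weights, variance model, the deposited table and leaving out each array.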

Additional observations from a re-analysis of the deposited data

Results flagged for a closer look

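In groups of 4 arrays, 1 array stood apart from the other 3 in 9 of 112 groups examined (8.04%), where chance gives about 5%, and none of these was among the 7 genes, their other probes or their pairs. GW4064 replicate 4 was low for Mapk8ip1 (1.72, others 2.01 to 2.03) and Rab11a (2.85, others 2.93 to 2.94) and high for Atp6v1b2 (0.80, others 0.72 to 0.73) and Pdgfrb (-1.29, others -1.46 to -1.44). GW4064 replicate 2 was low for Picalm (4.83, others 4.86). GW4064 replicate 3 was low for Ass1 (4.85, others 5.03 to 5.05) and high for Tagln (5.64, others 5.31 to 5.35). DMSO replicate 3 was low for Cyp24a1 (0.15, others 0.35 to 0.36) and high for Tagln (5.11, others 4.79 to 4.81).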

How the results depend on the processing

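Cubn passed under all 22 alternatives (log2 1.06 to 1.22), and Clcn5 and Ocrl passed under none and kept their sign (-0.081 to -0.018 and 0.0084 to 0.062). Amn and Lrp2 kept their calls except on a single slide, where fewer samples were used: Amn 0.36 on slide 1 and 0.40 on slide 2, Lrp2 0.34 and 0.29. Fcgrt lost its call on slide 1 (0.17), slide 2 (0.14), after median centring (0.14) and with the replicate block (0.15; adjusted p = 0.0775 in limma), and without single arrays ranged from 0.13 to 0.17. Dab2 passed with the mean of a gene's probes (0.12), slide as a block (0.12), array weights (0.11), a trended and robust fit (0.12) and, an alternative chosen after seeing the data, the 75th percentile over spots (0.13); adjusted p in limma ran from 0.0315 to 0.416 over its 22 alternatives. Dab2 has a single probe, so the mean of a gene's probes left its own values unchanged. The cause of these shifts was not tested. Over all genes 3006 passed, 966 on slide 1, 220 on slide 2 and 2076 to 2827 without single arrays. The labels do not say if equal numbers pair samples, and so few arrays cannot settle it. Same-numbered samples' deviations from their group means correlated at -0.13 to 0.19, and the replicate block gave 2322 genes. In the pathway lists, the replicate block left 1 call in the clathrin list (3 without it) and 0 among phosphoinositide enzymes, and array weights gave 6 in the clathrin list; endosome sorting fell from 4 calls to 2 after median centring. On single slides every list but the protein ligands (3 on each) had under 3 calls. Slide and scan date split the arrays alike, so scan date was not run. Normexp used median spot signals, with outlying local backgrounds replaced by the array's median after seeing the data. Differences of the 4 pairs kept their sign in the 18 alternatives run. Signal over background limited none of the 11 probes, all well above it on 8 arrays.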

Other observations

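Chosen after their values were seen, 2 genes of the route had wide spreads between arrays. Ap2b1, the beta subunit of the AP2 clathrin adaptor, read 0.70, -0.11, -0.45 and -0.42 on the DMSO arrays and -1.28, -1.33, -0.21 and -0.04 on the GW4064 arrays. The 2 lowest GW4064 arrays shared a slide with the highest DMSO array, and the log2 fold change of -0.64 ± 0.37 SE (n = 4 per group) did not pass (adjusted p = 0.262 in limma). Rab5c, a GTPase of early endosomes, read 2.43, 2.47, 2.14 and 2.76 with DMSO and 4.11, 2.61, 2.74 and 2.28 with GW4064, with GW4064 replicate 1 far above the rest. The log2 fold change was 0.49 ± 0.36 SE (n = 4 per group; adjusted p = 0.381 in limma).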
